A study of Mus musculus with 11 samples.

Results

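The 52 genes described here are cell cycle genes, taken by symbol from a deposited expression table of 14739 genes. They fall into 17 genes of DNA replication, 9 cyclins, kinases and transcription factors that regulate the cycle (called control genes below), and 26 genes of mitosis. All 52 were in the table and all 52 passed the filter on low values. The libraries are bulk RNA-seq of Tmem119+ microglia obtained by cell sorting from the cerebrum of old C57BL/6 mice, and the study set loss of 1 Csf1r allele, loss of 1 Csf2 allele and both losses together against wild type. Tmem119 is a surface protein of microglia, the resident macrophages of the brain. The genotypes with 3 libraries each were wild type (WT), Csf1r+/- (Csf1r_het) and Csf2+/- (Csf2het), and the double heterozygote Csf1r+/-; Csf2+/- (Dhet) had 2. The mice were 21 months old except those of Csf1r_het replicate 1 at 20 months, Csf1r_het replicate 2 at 24 months and Dhet replicate 2 at 24 months. No label limits the lost alleles to a cell type, and all groups share the C57BL/6 background. The labels do not say how many animals made each library, so p-values below measure the spread between these libraries.

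Csf1r is the receptor for CSF-1, on which microglia depend for survival and renewal, and Csf2 encodes CSF-2 (GM-CSF), a growth factor of granulocytes and macrophages. A cell that enters the cycle loads the Mcm helicase onto its origins with the help of Cdc6 and Cdt1, makes deoxynucleotides with the ribonucleotide reductase subunits Rrm1 and Rrm2 and with Tyms and Tk1, and copies its DNA on the sliding clamp Pcna. Genes of replication are switched on by E2F factors at the start of S phase, and genes of mitosis follow later through the B-Myb, DREAM and Foxm1 complexes, which act through CHR elements and nearby CCAAT boxes. Resident microglia renew slowly in the adult brain.

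Promoters of 7 of these genes are printed because the comparisons that follow turn on them and each holds an E2F word, a CHR word or a CCAAT box, described below. RefSeq promoters of build GRCm38.p6 were matched for 43 of the 52 genes, with 2 starts for 5 of them. The first 3 genes encode subunits of the Mcm helicase, and capitals mark E2F words (TTTGGCGC, TTTCCCGC, TTTGCCGC or TTTCGCGC, on either strand). For Mcm6 (chr1:128359706-128359855, minus strand) and Mcm5 (chr8:75109359-75109508, plus strand) the 150 bases before the start are given. For Mcm7 the 250 bases before the upstream of its 2 starts are given (chr5:138171884-138172133, minus strand), with its word 165 bases before the start.
Mcm6: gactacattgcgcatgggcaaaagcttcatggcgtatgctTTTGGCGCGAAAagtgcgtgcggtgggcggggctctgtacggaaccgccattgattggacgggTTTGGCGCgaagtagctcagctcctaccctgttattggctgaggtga
Mcm5: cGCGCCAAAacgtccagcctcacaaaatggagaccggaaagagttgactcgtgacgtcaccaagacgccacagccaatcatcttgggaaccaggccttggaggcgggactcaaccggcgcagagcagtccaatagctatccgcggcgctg
Mcm7: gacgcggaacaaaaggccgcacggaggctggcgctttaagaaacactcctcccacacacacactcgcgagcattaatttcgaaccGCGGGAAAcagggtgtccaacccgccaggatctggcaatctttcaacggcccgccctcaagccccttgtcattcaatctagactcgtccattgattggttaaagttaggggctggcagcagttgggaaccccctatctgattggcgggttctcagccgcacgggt
The next 4 are the 150 bases before the starts of the mitotic genes Mki67 (chr7:135716380-135716529), Top2a (chr11:99024190-99024339), Cdk1 (chr10:69352913-69353062) and Ccnb1 (chr13:100786487-100786636), all on the minus strand. Capitals mark CCAAT boxes and CHR words (TTTGAA or TTCGAA), on either strand.
Mki67: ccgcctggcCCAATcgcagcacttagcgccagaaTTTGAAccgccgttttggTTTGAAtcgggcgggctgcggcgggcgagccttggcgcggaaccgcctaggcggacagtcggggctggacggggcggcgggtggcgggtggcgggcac
Top2a: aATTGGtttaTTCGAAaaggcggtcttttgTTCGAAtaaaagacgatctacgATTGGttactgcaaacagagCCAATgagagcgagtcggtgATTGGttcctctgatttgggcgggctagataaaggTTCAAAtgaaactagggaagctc
Cdk1: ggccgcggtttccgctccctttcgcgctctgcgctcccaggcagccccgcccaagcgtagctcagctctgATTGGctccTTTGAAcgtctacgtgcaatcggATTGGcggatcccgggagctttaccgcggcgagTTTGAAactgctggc
Ccnb1: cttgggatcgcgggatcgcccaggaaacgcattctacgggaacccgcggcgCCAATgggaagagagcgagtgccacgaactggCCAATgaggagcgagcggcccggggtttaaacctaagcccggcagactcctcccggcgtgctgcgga
In Mcm6 the first run in capitals is a pair of overlapping E2F words on opposite strands. Within 250 bases before a start, an E2F word stood in 5 of 15 replication genes (33.3%: Cdc6, Mcm5, Mcm6, Mcm7 and Uhrf1), in 1 of 6 control genes (Cdk2) and in 1 of 22 mitotic genes (Cdk1), against 1.86% of 32851 RefSeq promoters. CHR words stood in 10 of 22 mitotic genes (45.5%) and in 3 of 15 replication genes (20%), against 17.1% of all promoters. CCAAT boxes stood in 19 of 22 mitotic genes (86.4%), 11 of 15 replication genes (73.3%) and 3 of 6 control genes, against 33.8% of all promoters. A gene counted if any of its starts held the motif, while the shares of all promoters count each start alone. Mcm7 and Uhrf1 held the E2F word at 1 of their 2 starts. These are matches of letters in a window and not measured binding.

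The libraries held 21037819 to 53081638 reads, and 1 read was worth 0.479 to 1.48 normalized counts, the unit of all levels below. Haemoglobin genes took 16.1% of the counts in the lowest library and 58.8% in the highest, Csf1r_het replicate 2, which also listed 8 of the 52 members at 0. No other library listed more than 2 at 0, and neither Dhet library listed any. All 10 microglia markers were present in all 11 libraries, none at 0, with Tmem119 itself at 17695, 5432 and 19084 in WT, 16377, 16736 and 15711 in Csf1r_het, 18805, 31939 and 22462 in Csf2het and 30741 and 23328 in Dhet. Dhet replicate 2 stood apart from the rest in sex-linked genes, with Ddx3y at 717 against 0 to 16.3 in the other 10 libraries and Xist at 4.03 against 3011 to 8151. These levels are the pattern of a male in that library and of females in the other 10, though the labels give no sex. That library is also 1 of the 2 from mice of 24 months. Sex and age thus differ together between the 2 Dhet libraries and cannot be told apart there. Some counts and medians for Dhet that follow are therefore also given without Dhet replicate 2, and the rest include it. Leaving it out leaves Dhet with 1 library, which is assumed in the fit to vary like the other groups.

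Both Dhet libraries held more RNA than any other library for 28 of the 52 cell cycle genes (9 of replication, 4 of control and 15 of mitosis), where 3.58% of all 13223 tested genes did so. The mean of Dhet was the highest of the 4 genotypes for 49 of the 52 genes (28.4% of all genes), with WT highest for the other 3, and the lowest mean lay in Csf2het for 30 genes. In bulk libraries more cells of a type and more RNA per cell cannot be told apart. The median member was 3.37 times as high in Dhet as in the other 9 libraries (0.986 times over all genes), 3.15 times among replication genes, 2.75 times among control genes and 3.96 times among mitotic genes. Against single genotypes both Dhet libraries lay above every WT library for 35 genes (13.5% of all genes), above every Csf1r_het library for 36 (18.5%) and above every Csf2het library for 48 (16.7%).

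With Dhet replicate 2 left out, a setting added after seeing the data, replicate 1 alone was above the mean of each other genotype for 43 of the 52 genes (29.6% of all genes), and the median member was 2.52 times as high as in the 9 others (2.48 for replication, 2.36 for control and 2.83 for mitosis). It lay above all 9 others for 29 genes (13.6% of all genes), above every WT library for 36 (27.8%), above every Csf1r_het library for 36 (32.6%) and above every Csf2het library for 48 (32.4%). Replicate 2 alone lay above all 9 others for 41 genes (11.4%). A single library passes such a comparison more readily than a pair, as the shares of all genes show.

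No single member passed the test across all genes in these 3 contrasts. In limma with Benjamini-Hochberg adjustment, 0 of 52 members were called for Dhet against WT (0.529% of all genes were called), 0 against Csf1r_het (0.00756%) and 0 against Csf2het (0.0227%). At an unadjusted limma p under 0.05, 21 members were higher in Dhet than in WT (3.85% of all genes), 27 higher than in Csf1r_het (5.99%) and 32 higher than in Csf2het (5.09%), and none was lower. With replicate 2 of Dhet left out 8 were higher than in WT (2.92% of all genes), 5 than in Csf1r_het (3.71%) and 10 than in Csf2het (3.2%), and Cdt1 was lower than in WT at that p. The edgeR test on the recovered reads also called 0 in each of the 3 contrasts, and DESeq2 called 7 (2.54% of all genes), 1 (0.688%) and 6 (1.15%). The median log2 fold change of the 52 members in Dhet was 1.86 against WT (0.02 over all genes), 2.01 against Csf1r_het (0.10) and 2.23 against Csf2het (0.03). Without Dhet replicate 2 it was 1.53, 1.57 and 1.96, and against WT it was 1.24 for replication, 1.89 for control and 1.55 for mitotic genes.

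**Figure D1:**
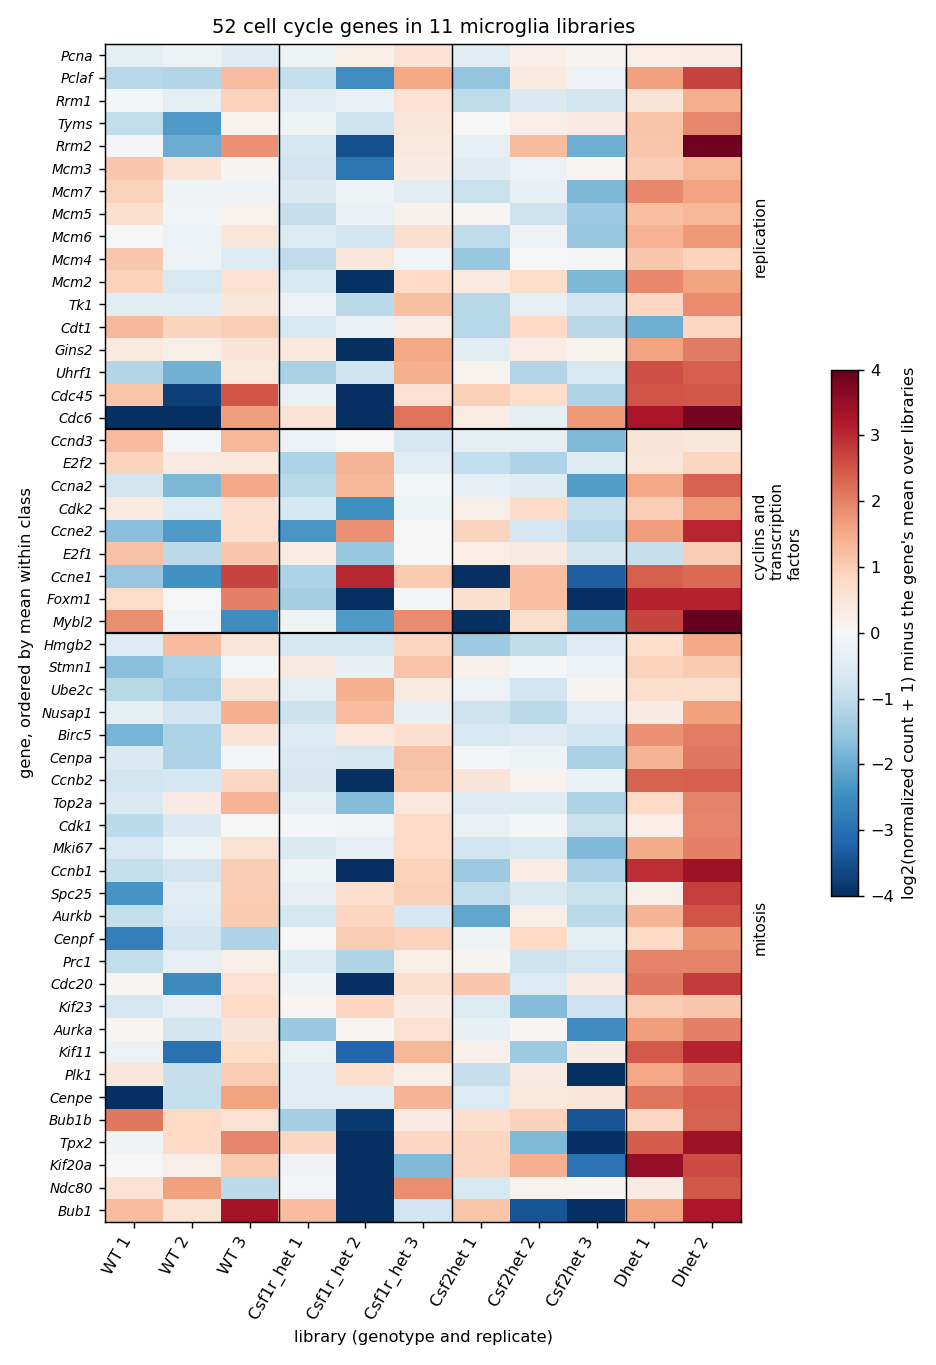
Levels of the 52 genes (rows, by class and by falling mean) in the 11 libraries (columns, by genotype). Colour is log2(normalized count + 1) minus the mean of the gene over the libraries, clipped at 4 in either direction, and both Dhet columns are red through most rows of all 3 classes.

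Among the genes that license and fire origins, Mcm7, a subunit of the replicative helicase, was at 638, 303 and 303 in WT, 224, 296 and 247 in Csf1r_het, 181, 267 and 95.4 in Csf2het and 1284 and 1022 in Dhet. Both Dhet libraries lay above all others, and WT replicate 1 was the highest of the rest. Its log2 fold change was 1.56 against WT (SE 0.55, limma adjusted p = 0.349), 2.17 against Csf1r_het (adjusted p = 0.382) and 2.77 against Csf2het (adjusted p = 0.129). Of the other helicase subunits, Mcm6 was at 299.9, 259 and 431 in WT, 209, 181 and 477 in Csf1r_het, 151, 275 and 106 in Csf2het and 804 and 1023 in Dhet, with both Dhet libraries above all others. Mcm5 ran from 124 to 536 in the 9 other libraries and was at 782 and 862 in Dhet, and Mcm2 ran from 10.4 to 333 and was at 659 and 536. Mcm3 was at 756, 519 and 382 in WT, 209.9, 45.9 and 449.6 in Csf1r_het, 257, 301 and 375 in Csf2het and 718 and 895 in Dhet, so that WT replicate 1 lay between the Dhet libraries. Mcm4 ran from 109.5 to 658, with WT replicate 1 at its upper end, against 668 and 576 in Dhet, so the groups overlapped there too.

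Of the factors that load or activate the helicase, Cdc6 was at 0, 0 and 65.4 in WT, 30.4, 0 and 94.8 in Csf1r_het, 25.03, 15.3 and 69.5 in Csf2het and 199.7 and 299 in Dhet. The Dhet pair was above all others, and 3 of the 9 other libraries held no read of it. Its log2 fold change of 5.92 against WT (SE 2.08, limma adjusted p = 0.349) rests on WT libraries of which 2 are at 0. Gins2, a subunit of the GINS complex that joins the helicase at firing, ran from 0 to 335 in the 9 other libraries and was at 354 and 482 in Dhet. Cdc45, its partner, ran from 0 to 299 and was at 297 and 292, just under WT replicate 3. Cdt1, the licensing factor that is destroyed once S phase begins, was the exception among the 17 replication genes. It was at 414, 312 and 332 in WT, 106, 138 and 204 in Csf1r_het, 75.1, 291 and 77.7 in Csf2het and 42.8 and 297 in Dhet. All WT libraries lay above both Dhet libraries, and Dhet replicate 1 was the lowest of the 11. The log2 fold change of Cdt1 was -1.62 in Dhet (SE 0.86, limma adjusted p = 0.549), -1.54 in Csf2het and -1.28 in Csf1r_het, all against WT.

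Genes of nucleotide supply and of the moving fork came next in the order of replication. Tyms, which makes thymidylate, was at 220.3, 89.3 and 476 in WT, 384, 243 and 600.1 in Csf1r_het, 426, 519 and 545 in Csf2het and 964 and 1633 in Dhet. The Dhet libraries were the 2 highest, and WT held the lowest value. Its log2 fold change in Dhet was 2.57 against WT (SE 0.64, limma adjusted p = 0.136). Rrm2, the regulated subunit of ribonucleotide reductase, was at 205, 53.4 and 755 in WT, 129, 17.8 and 283 in Csf1r_het, 169, 510.4 and 54.5 in Csf2het and 465 and 3197 in Dhet. Dhet replicate 2 was far above all others, while Dhet replicate 1 lay below WT replicate 3 and Csf2het replicate 2. Rrm1, the other subunit, was at 494, 402 and 995 in WT, 385, 428 and 785 in Csf1r_het, 259, 349 and 315 in Csf2het and 751 and 1381 in Dhet, and Dhet replicate 1 lay within the range of the others. Tk1, thymidine kinase, ran from 81.4 to 405 in the 9 other libraries and was at 315 and 653 in Dhet, with Csf1r_het replicate 3 above the lower of them.

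Pclaf, a Pcna-binding protein of dividing cells, was at 175, 168 and 901 in WT, 197, 66.7 and 1105 in Csf1r_het, 126, 496 and 320.2 in Csf2het and 1176 and 2489.6 in Dhet. Both Dhet libraries lay above all others, and replicate 3 of WT and of Csf1r_het came next. Uhrf1, which recruits the maintenance methyltransferase to newly copied DNA, was at 43.7, 25.2 and 134 in WT, 39.6, 56.3 and 266 in Csf1r_het, 109.5, 43.6 and 64.04 in Csf2het and 594 and 528 in Dhet. Both Dhet libraries were above all others, and the log2 fold change was 3.37 against WT (SE 0.97, limma adjusted p = 0.223). Pcna, the clamp, was at 1539, 1742 and 1429.8 in WT, 1746, 2371 and 3006 in Csf1r_het, 1489.5, 2336 and 2188 in Csf2het and 2443 and 2483 in Dhet. The Dhet libraries were above every WT library but below Csf1r_het replicate 3, and the log2 fold change against WT was 0.65 (SE 0.33, limma adjusted p = 0.521). Over the 17 replication genes the median log2 fold change of Dhet against WT was 1.49, with 16 above 0. At an unadjusted limma p under 0.05, 6 were higher (3.85% of all genes).

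**Figure D2:**
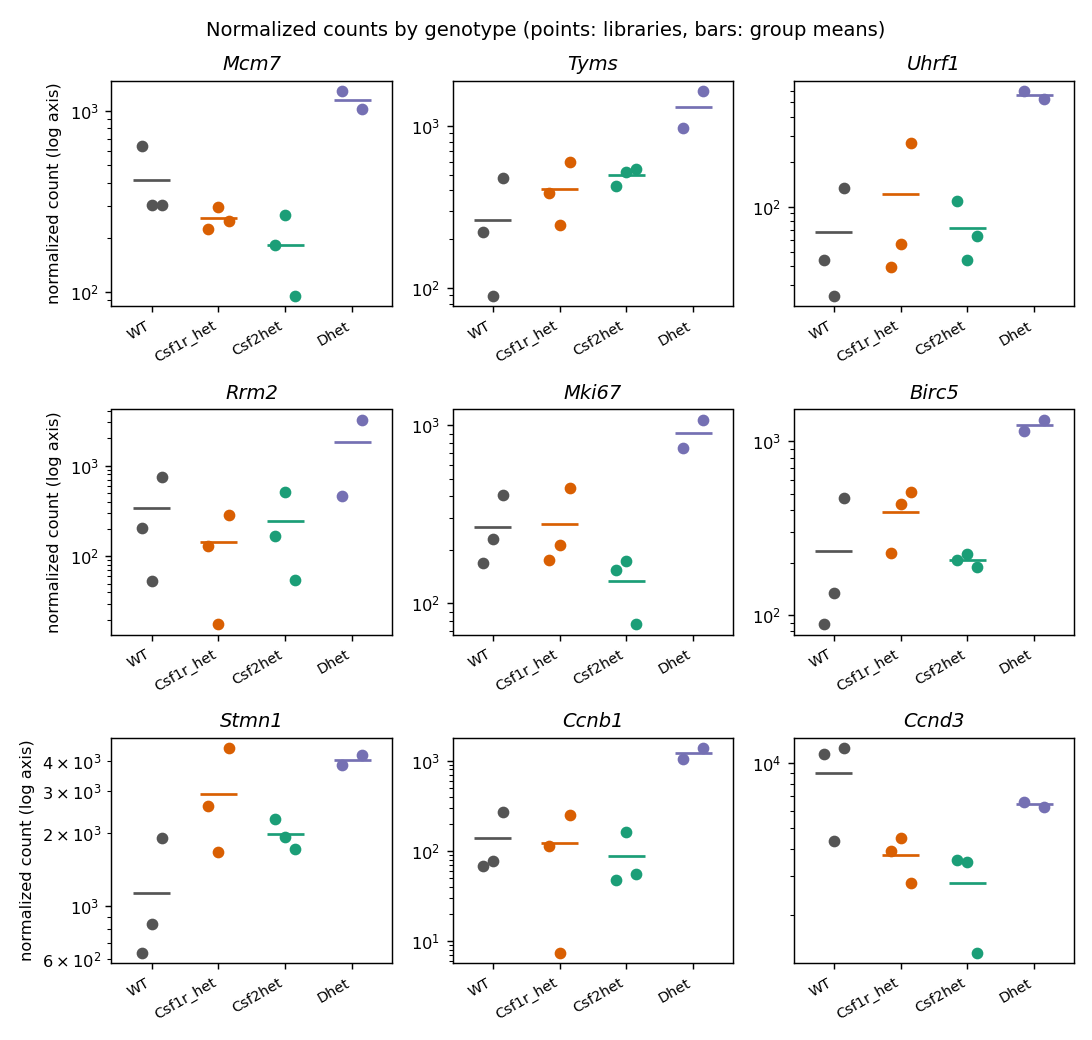
Normalized counts (log axis, with its own range in each panel) of 9 genes in each library (points) by genotype, with group means as bars. For Mcm7, Tyms, Uhrf1, Mki67, Birc5 and Ccnb1 both Dhet points lie above all others, and Ccnd3 is highest in 2 WT libraries.

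Of the 9 control genes, Ccnd3 and E2f1 had their highest mean in WT and the other 7 in Dhet. Ccnd3, the D-type cyclin of many blood cells, was at 10986, 4342 and 11647 in WT, 3929, 4507 and 2813 in Csf1r_het, 3577, 3486 and 1338 in Csf2het and 6617 and 6271 in Dhet. WT replicates 1 and 3 lay above both Dhet libraries, and every Csf2het library lay below every WT library. Its log2 fold change was -1.69 in Csf2het (SE 0.45, limma adjusted p = 0.0567), -1.16 in Csf1r_het (adjusted p = 0.23) and -0.35 in Dhet (adjusted p = 0.842), all against WT. E2f2, an activator E2F, was at 1165, 817 and 848 in WT, 269, 1628 and 462 in Csf1r_het, 319, 269 and 444 in Csf2het and 878 and 1152 in Dhet, with Csf1r_het replicate 2 highest and every Csf2het library below every WT library. Its log2 fold change was -1.46 in Csf2het (limma adjusted p = 0.176) and 0.11 in Dhet. E2f1, its close relative, ran from 45.9 to 299.9 in the 9 other libraries and was at 69.8 and 272 in Dhet, inside that range.

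Ccne2, an E-type cyclin that drives entry into S phase, was at 35.96, 23.3 and 184 in WT, 22.4, 413 and 114 in Csf1r_het, 215, 72.3 and 51.8 in Csf2het and 375 and 959.6 in Dhet. Dhet replicate 2 was the highest, Dhet replicate 1 lay just under Csf1r_het replicate 2, and both were above all WT libraries (log2 fold change 3.45, SE 1.21, limma adjusted p = 0.345). Ccne1, the other E-type cyclin, ran from 1.04 to 290.4 in the 9 other libraries and was at 188 and 175 in Dhet, inside that range. Ccna2, the cyclin of S phase and G2, was at 169, 79.6 and 802 in WT, 132, 716 and 272 in Csf1r_het, 224, 201 and 58.6 in Csf2het and 821 and 1448 in Dhet. The Dhet pair was above all others, the lower of them by little over WT replicate 3. Cdk2, the kinase partner of these cyclins, was at 301, 160.1 and 368 in WT, 141, 41.5 and 205 in Csf1r_het, 272, 396 and 121 in Csf2het and 457 and 769.9 in Dhet, again with both Dhet libraries highest (log2 fold change 1.18 against WT, limma adjusted p = 0.617).

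The late factors were among the rarest transcripts of the set. Mybl2, which encodes B-Myb, ran from 0 to 69.5 in the 9 other libraries and was at 122 and 304 in Dhet. Foxm1, the activator of G2 and mitotic genes, ran from 0 to 102 and was at 216 and 212. Dhet libraries were above all others for both genes. Foxm1 was listed at 0 in Csf1r_het replicate 2 and Csf2het replicate 3. Over the 9 control genes the median log2 fold change of Dhet against WT was 2.16, with 7 above 0. At an unadjusted limma p under 0.05, 2 were higher (3.85% of all genes). The median of the control genes was 1.15 with edgeR and 1.16 with DESeq2 on recovered reads.

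All 26 mitotic genes had a positive log2 fold change in Dhet against WT, with a median of 2.02. At an unadjusted limma p under 0.05, 13 were higher (3.85% of all genes). Without Dhet replicate 2 not all 26 stayed positive. Bub1 and Bub1b, with values below, were among those that turned negative. Ndc80 was at 49.6 in Dhet replicate 1, against 59.7, 124 and 18.4 in WT. Dhet replicate 1 alone was above the mean of each other genotype for 21 of the 26 (29.6% of all genes). The chromosomal passenger complex and its kinase were among the mitotic genes. Birc5 (survivin), its targeting subunit, was at 87.98, 134 and 473 in WT, 226, 433 and 511 in Csf1r_het, 205, 223 and 189 in Csf2het and 1147 and 1333 in Dhet. Both Dhet libraries lay well above all others, and WT replicates 1 and 2 were the lowest. The log2 fold change of Birc5 against WT was 2.79 (SE 0.66, limma adjusted p = 0.113), the lowest p of the 52 in that contrast. Aurkb, the kinase of the complex, ran from 37.6 to 334 in the 9 other libraries and was at 413 and 925 in Dhet. Aurka, the kinase of spindle poles, ran from 19.1 to 171 and was at 363 and 457.

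Ccnb1, the main cyclin of mitosis, was at 67.4, 77.6 and 269.7 in WT, 114, 7.41 and 247 in Csf1r_het, 46.9, 162 and 55.9 in Csf2het and 1031 and 1376 in Dhet. The Dhet pair was well above all others, and Csf1r_het replicate 2 was the lowest. Ccnb2, the other B-type cyclin, ran from 5.93 to 465 in the 9 other libraries and was at 1101 and 1128 in Dhet. Cdk1, the kinase that both activate, ran from 143 to 503 and was at 354 and 1145, so that Dhet replicate 1 lay within the range of the others. The proliferation marker Mki67 was at 169.5, 231 and 406 in WT, 176, 212 and 447 in Csf1r_het, 153, 173 and 76.3 in Csf2het and 743 and 1076 in Dhet. Its Dhet libraries were above all others, and its log2 fold change was 1.83 against WT (limma adjusted p = 0.335) and 2.81 against Csf2het (adjusted p = 0.199). Top2a, the topoisomerase that untangles sister chromatids, ran from 85.9 to 742 in the 9 other libraries and was at 503 and 1140.2 in Dhet, the lower value being inside the range.

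Spindle and cytokinesis genes followed. Prc1, a bundler of the central spindle, ran from 69.6 to 194 in the 9 other libraries and was at 652 and 644 in Dhet (log2 fold change 2.34 against WT, limma adjusted p = 0.223). The kinesin Kif11, which separates spindle poles, ran from 5.93 to 156 and was at 340.2 and 519.8. Kif20a, a kinesin of the midzone, ran from 0 to 75.2 and was at 324 and 174. Kif23, a kinesin of the cytokinetic bridge, ran from 39.3 to 244 and was at 273 and 286. All 4 were higher in both Dhet libraries than in any other library. The same held for Tpx2, a spindle assembly factor, at 0 to 143 against 197 and 394, and for the polo kinase Plk1 at 4.09 to 172 against 251 and 347. Nusap1, a microtubule-binding protein, was at 387, 301 and 1362 in WT, 281, 1216 and 421 in Csf1r_het, 291, 242 and 383 in Csf2het and 642 and 1606 in Dhet, with WT replicate 3 between the Dhet libraries.

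Centromere and checkpoint genes were mixed. Cenpa, the histone of centromeres, ran from 134 to 753 in the 9 other libraries and was at 848 and 1445 in Dhet, and Cenpe, a kinetochore motor, ran from 0 to 203 and was at 294 and 348. Both genes were highest in the 2 Dhet libraries. Cenpf, a large kinetochore protein, was at 24.4, 97.1 and 70.00 in WT, 164, 342 and 316 in Csf1r_het, 147, 292 and 127 in Csf2het and 293 and 589 in Dhet. All WT libraries lay below every library of the other genotypes, with a log2 fold change of 2.22 in Csf1r_het (SE 0.67, limma adjusted p = 0.128), 1.66 in Csf2het (adjusted p = 0.214) and 2.89 in Dhet (adjusted p = 0.153). The spindle checkpoint kinase Bub1 was at 36.6, 22.3 and 159 in WT, 36.96, 0 and 8.42 in Csf1r_het, 33.4, 0.479 and 0 in Csf2het and 48.1 and 149 in Dhet, with WT replicate 3 highest. Its relative Bub1b was at 238, 97.1 and 83.8 in WT, 21.1, 2.96 and 69.5 in Csf1r_het, 86.6, 105 and 4.09 in Csf2het and 99.1 and 289 in Dhet, with WT replicate 1 between the Dhet libraries. Leaving out Dhet replicate 2 turned the log2 fold change of Dhet against WT to -0.08 for Bub1 and -0.33 for Bub1b. The Ndc80 complex, which holds microtubules, was high in replicate 2 alone, with Ndc80 at 49.6 and 227 in Dhet against 0 to 146 and Spc25 at 185 and 1103 against 30.8 to 326. Cdc20, which activates the anaphase-promoting complex, ran from 2.96 to 181 and was at 369 and 591 in Dhet.

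Levels between genes were compared per kilobase of exon. Among mitotic genes, Hmgb2, a chromatin protein, averaged 1274 normalized counts per kb over the libraries, Stmn1, a tubulin-binding protein, 1238, and Ube2c, the ubiquitin-conjugating enzyme of anaphase, 813. The highest in the other classes were Pcna at 863 among replication genes and Ccnd3 at 617 among control genes, and Bub1 was the lowest of the 52 at 10.3. Stmn1 was at 638, 839.5 and 1915 in WT, 2586, 1667 and 4511 in Csf1r_het, 2294, 1937 and 1715 in Csf2het and 3857 and 4209 in Dhet. Csf1r_het replicate 3 was highest, both Dhet libraries came next, and WT held the 2 lowest (log2 fold change of Dhet 1.997, SE 0.48, limma adjusted p = 0.12; of Csf1r_het 1.41, adjusted p = 0.132). Hmgb2 was at 2162, 7434 and 4287 in WT, 1934, 1923 and 5641 in Csf1r_het, 1127, 1528 and 2170.5 in Csf2het and 5022 and 8841 in Dhet, with WT replicate 2 above Dhet replicate 1 and a log2 fold change of -1.40 in Csf2het against WT (limma adjusted p = 0.166). Ube2c was at 846, 697 and 2666 in WT, 1402, 4853 and 2304 in Csf1r_het, 1523, 1065 and 1939 in Csf2het and 2975 and 2976 in Dhet, with Csf1r_het replicate 2 highest.

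Within each genotype the libraries were not alike. Among the 3 WT libraries, replicate 3 was the highest for 38 of the 52 genes (30.3% of all genes). Among the 3 Csf1r_het libraries replicate 3 was the highest for 35 (31.2%) and replicate 2 the lowest for 30 (43.3%). Among the 3 Csf2het libraries replicate 2 was the highest for 28 (33.4%) and replicate 3 the lowest for 26 (38.2%). Dhet replicate 2 exceeded replicate 1 for 42 genes (52% of all genes), among them 12 of 17 in replication and 24 of 26 in mitosis. The median mitotic gene was at 366 in Dhet replicate 1 and 784 in replicate 2, against 88.3 to 251 in the 9 other libraries. The median replication gene was at 668 and 863, against 83.0 to 335.

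Loss of 1 allele of either gene alone was set against WT in the same fit. In Csf1r_het 0 of 52 members were called (1.32% of all genes), 4 had an unadjusted limma p under 0.05 (16.2%), and the median log2 fold change was -0.25 against -0.12 over all genes. Its 3 libraries all lay above WT for 2 members (8.61% of all genes) and all below for 5 (12.8%). In Csf2het 0 of 52 were called (3.65%), 7 had an unadjusted p under 0.05 (17.3%), and the median was -0.59 against -0.02. Its libraries all lay above WT for 1 member (11% of all genes) and all below for 6 (14.3%). DESeq2 on the recovered reads called 2 members in Csf1r_het (5.41% of all genes) and 1 in Csf2het (8.61%). These shares of the members were near or below those of all genes. By class the medians were -0.33 for replication, -0.66 for control and -0.03 for mitosis in Csf1r_het, and -0.52, -1.47 and -0.55 in Csf2het. The control median in Csf2het was -0.11 without WT replicate 3 and -0.09 without Csf2het replicate 3.

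**Figure D3:**
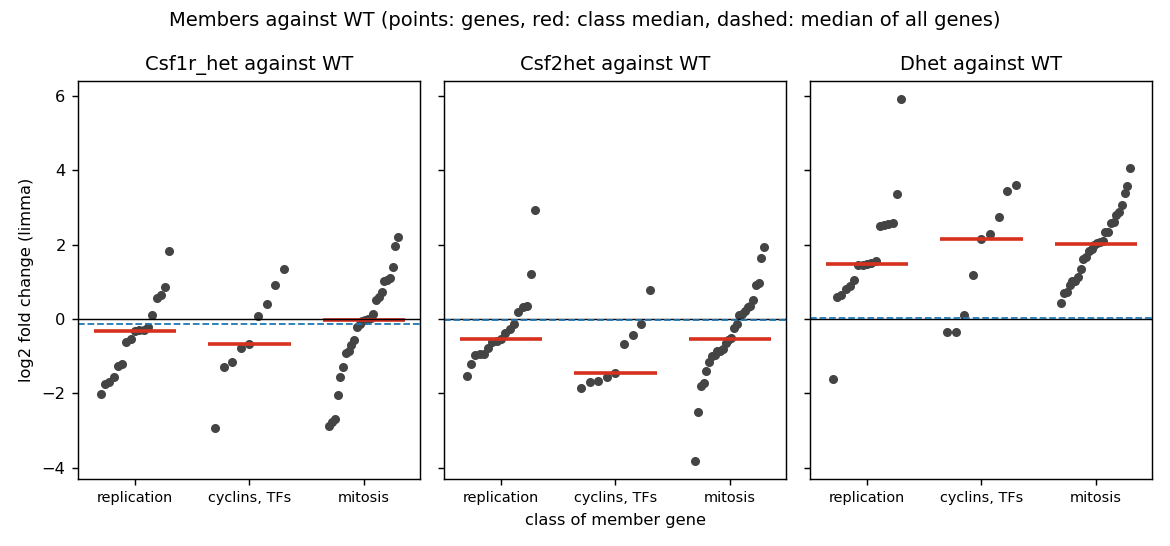
Log2 fold changes against WT of the 52 genes (points) by class in the 3 heterozygous genotypes, with class medians as red bars and the median of all tested genes dashed. The medians in Dhet are 1.49, 2.16 and 2.02, and those of the single heterozygotes lie at or below 0.

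The interaction asks whether the effect of the Csf2 allele differs between mice with 2 and with 1 Csf1r allele. Mcm7 was the 1 member of 52 that passed (1.85% of all genes did), with an interaction of 3.38 on the log2 scale (SE 0.74, limma adjusted p = 0.0358). Loss of 1 Csf2 allele went with a log2 difference in Mcm7 of -1.22 in mice with both Csf1r alleles and of 2.17 in Csf1r+/- mice. At an unadjusted p under 0.05 the interaction was positive for 23 members and negative for none, against 11.1% of all genes positive. With Dhet replicate 2 left out the count was 11 (8.24% of all genes). The median interaction was 2.64 over the members and 0.15 over all genes. Markers of several other cells, though not of all, had positive interactions too. The median was 5.51 over 10 markers of granulocyte precursors (10 positive, 0 called), 3.71 over 8 of neutrophils (8 positive, 0 called), 3.45 over 8 of monocytes (8 positive, 4 called) and 2.44 over 7 of B cells (7 positive, 0 called), and it was -1.16 over 10 of microglia (0 positive, 0 called). Over 13 erythroid markers it was -0.20 (6 positive, 0 called), and over 8 of T and NK cells 0.12 (5 positive, 0 called). Over 4 stem cell markers it was 1.78 (3 positive, 0 called). The part of these cells in the interaction was not tested. The contrasts share their WT, Csf1r_het, Csf2het and Dhet libraries, so their counts are not independent of each other. A test for any difference among the 4 genotypes called 0 of 52 (1.94% of all genes), with 20 at an unadjusted p under 0.05 (14.5%). Its lowest adjusted p was that of Mcm7 (limma adjusted p = 0.0684), and edgeR called Mcm7 alone there. DESeq2 called 7 members for the interaction (6.87% of all genes) and 13 for any difference (7.44%).

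The call on Mcm7 was lost in 8 of the 11 fits that left out 1 library. Without WT replicate 1, Csf1r_het replicate 1 or 3, or any 1 of the Csf2het and Dhet libraries, no member was called for the interaction, nor when library totals were taken without haemoglobin. The exons of Mcm7 overlap those of Cops6 and Ap4m1 on the other strand, and the labels do not say whether counting used strand. In all, 11 of the 52 members overlap exons of another gene in the table, and Pcna, Tyms, Ccnd3, Stmn1, Ccnb1 and Ccnb2 have named pseudogenes or related copies in GENCODE vM21, so that their levels are uncertain to the extent that reads were shared.

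Cell cycle genes outside the 52, from lists written for this comparison, are described by their counts. Of 41 other replication genes 0 were called in Dhet against WT and 36 had a positive log2 fold change. Their median was 0.67, and 13 (31.7% of the list) were above all 9 other libraries in both Dhet libraries. Of 51 other mitotic genes 0 were called, 43 were positive, the median was 1.64 and 15 (29.4% of the list) were above all 9. Of 28 other control genes 0 were called, 23 were positive, the median was 0.66 and 4 (14.3% of the list) were above all 9. Over all 13223 tested genes 0.529% were called, 6736 were positive, the median was 0.02 and 3.58% were above all 9. Tipin, of the fork protection complex, was at 536, 256 and 577 in WT, 507, 707 and 939 in Csf1r_het, 390.1, 699.5 and 406 in Csf2het and 963 and 1470.2 in Dhet, and Dut, which clears dUTP, was at 188, 265 and 324 in WT, 469, 513 and 842 in Csf1r_het, 207, 420.4 and 469 in Csf2het and 653 and 793 in Dhet. Both Dhet libraries were the highest for Tipin, and Csf1r_het replicate 3 was the highest for Dut. Cenpi, a kinetochore subunit, was at 43.7, 7.76 and 19.5 in WT, 107, 357 and 50.5 in Csf1r_het, 12.5, 49.8 and 66.8 in Csf2het and 250.1 and 316 in Dhet, with Csf1r_het replicate 2 highest and a log2 fold change of Dhet against WT of 3.82 (limma adjusted p = 0.224), and the condensin subunit Smc2 was at 930.4 and 1135 in Dhet against 156 to 685.

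Among the other control genes, Cdkn1a, which encodes the kinase inhibitor p21, was at 1017, 2252 and 995 in WT, 1273, 1240.2 and 1085 in Csf1r_het, 1103, 1047 and 1241 in Csf2het and 448 and 313 in Dhet. Both Dhet libraries were below all 9 others, and the log2 fold change against WT was -1.81 (SE 0.40, limma adjusted p = 0.0803), which missed the threshold. The D-type cyclin Ccnd2 was at 919.9 and 808 in Dhet and 1199 to 2223 in the 9 others (log2 fold change -0.89, limma adjusted p = 0.327). Ccnd1, another D-type cyclin, was at 389.8, 669 and 513 in WT, 709, 1366 and 1193 in Csf1r_het, 1412, 1393 and 1129.5 in Csf2het and 1106 and 519.8 in Dhet. All Csf1r_het and Csf2het libraries were above every WT library, with log2 fold changes of 1.04 (limma adjusted p = 0.213) and 1.35 (adjusted p = 0.0759).

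The summed markers of granulocyte precursors were also highest in both Dhet libraries. Of 10 markers of granulocyte precursors, all 10 had a positive log2 fold change in Dhet against WT, with a median of 3.19. By limma 0 were called and 4 were higher at an unadjusted p under 0.05 (3.85% of all genes). Their summed level was 25197, 23344 and 237914 in WT, 32505, 9570.5 and 143005 in Csf1r_het, 45628, 46111 and 37078 in Csf2het, and 292326 and 280476 in Dhet. Both Dhet libraries were the highest, and replicate 3 of WT and of Csf1r_het, the high libraries of their genotypes for cell cycle genes, came next. In Dhet none of the 10 was at 0, and elsewhere Elane (Csf1r_het replicate 1), Ms4a3 (Csf1r_het replicate 2) and Ctsg (Csf2het replicate 3) were. The most abundant, Ngp, a protein of neutrophil granules, was at 14104, 9956 and 146449 in WT, 23221, 3971 and 90621 in Csf1r_het, 27606, 29393 and 18083 in Csf2het and 191304 and 142610.4 in Dhet. The 8 markers of mature neutrophils summed to 35160 to 625308 in WT, 21580 to 359699 in Csf1r_het, 79563 to 160910 in Csf2het and 451224 and 526528 in Dhet. WT replicate 3 was the highest there, and all 8 had a positive log2 fold change in Dhet against WT. Set against single libraries, both Dhet libraries were above WT replicate 3 for 41 of the 52 cell cycle genes (32% of all genes) and above Csf1r_het replicate 3 for 41 (36.5%). The part of granulocyte cells in the cell cycle result was not tested.

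Erythroid and stem cell markers were highest in Dhet replicate 2 for some genes. Of 13 erythroid markers in the table, 9 had a positive log2 fold change in Dhet against WT (median 1.06, 0 called by limma). Klf1, a factor of red cell precursors, was at 0, 0 and 55.1 in WT, 35.6, 296 and 98.97 in Csf1r_het, 8.35, 159 and 38.2 in Csf2het and 111 and 890.1 in Dhet, and the stem cell factor Myb was at 0.642, 11.6 and 78.03 in WT, 25.1, 0 and 96.9 in Csf1r_het, 52.2, 34.95 and 10.9 in Csf2het and 185 and 305 in Dhet. Of the 4 stem cell markers 3 had a positive log2 fold change in Dhet against WT (median 0.71, 0 called by limma): Myb at 4.34, Cd34 at 1.13 and Gata2 at 0.29, with Flt3 at -0.39. Dhet replicate 2 was far the highest for Klf1, and both Dhet libraries were the highest for Myb. The sum of the erythroid markers, mostly haemoglobin, was 8323930 and 5493360 in Dhet, inside the range of the 9 other libraries (4225800 to 38521400). The 10 microglia markers summed to 118116 to 309573 in WT, 308685 to 362788 in Csf1r_het, 454808 to 592216 in Csf2het and 479155 and 382646 in Dhet. For 4 of the 10 granulocyte precursor markers, 1 of 13 erythroid and 1 of 4 stem cell markers both Dhet libraries were above all 9 others. Of all 13223 tested genes 3.58% were. The count was 0 of 10 for microglia, 0 of 8 for neutrophils, 0 of 8 for monocytes, 0 of 7 for B cells and 0 of 8 for T and NK cells. The 8 monocyte markers summed to 72362 to 239002 in WT, 48244 to 63981 in Csf1r_het, 12519 to 20356 in Csf2het and 69847 and 59817 in Dhet. Of these, 7 fell in Csf2het against WT by limma with adjustment over all genes, where 3.65% of all genes were called. In Dhet against WT 0 were called (0.529% of all genes), but 7 of the 8 had a negative log2 fold change. The median there was -1.41. Of the 8, 4 were lower in Dhet at an unadjusted limma p under 0.05, as were 820 of all 13223 genes. The part of these cells in the cell cycle result was not tested.

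**Figure D4:**
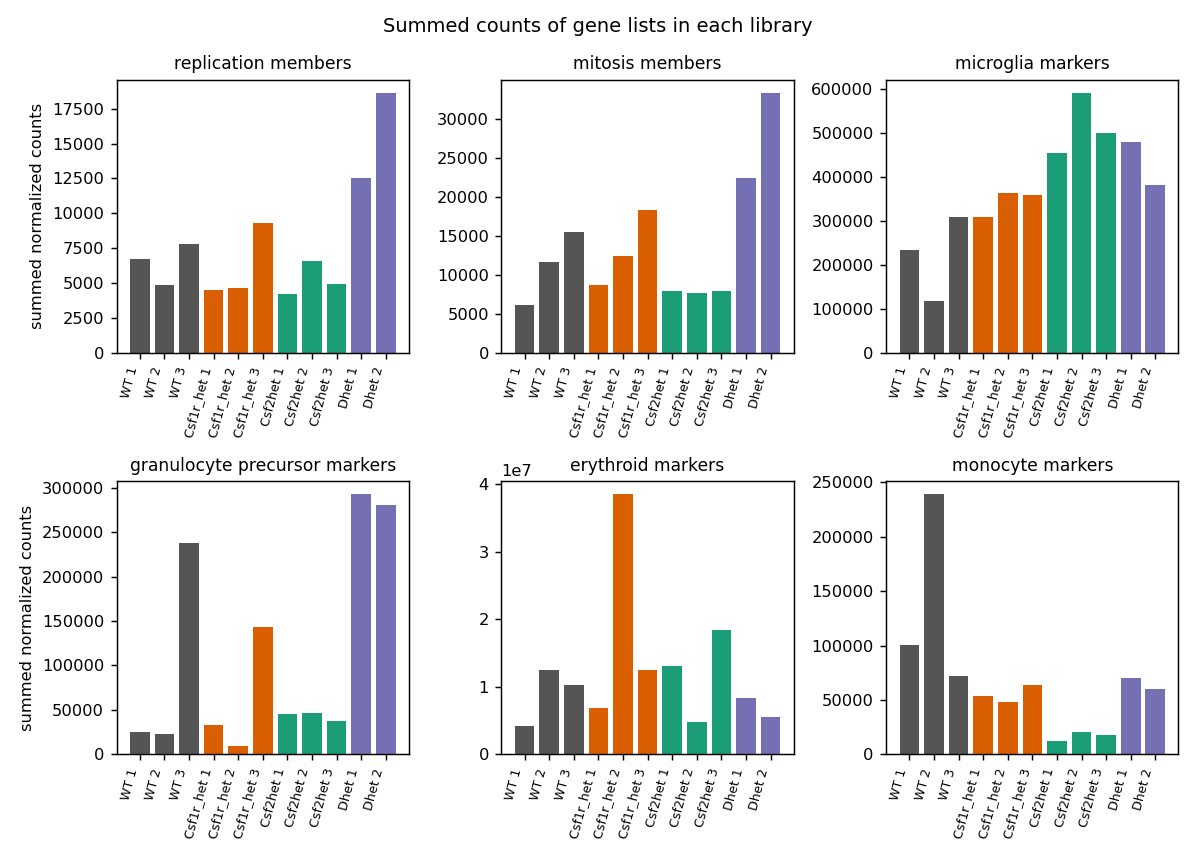
Summed normalized counts of the 17 replication and 26 mitotic members and of 4 marker lists in each library, coloured by genotype (each panel has its own scale from 0). The granulocyte precursor panel has its 4 highest bars in both Dhet libraries, WT replicate 3 and Csf1r_het replicate 3.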

How the data were processed

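The deposited table gives a signal for each gene in each library, namely read counts that the authors scaled by library size factors (normalized counts). Reads were quantified with kallisto 0.43.1 and normalized with DESeq2 on build mm10, per the submitters' processing notes. Each library's values were whole multiples of 1 step, and 100% came out whole within 0.02 reads, which gave reads and depth.

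The 52 members, the gene lists and the tests were chosen with earlier results of these data known. The main test was 1 limma 3.58.1 fit (R 4.3.3, trended prior) on log2(normalized count + 1) over the 4 genotypes, for the 13223 of 14739 genes with a mean of at least 10, each contrast being adjusted by Benjamini-Hochberg at 0.05. Adding 1 alone shrinks fold changes of low genes, but libraries at 0 can widen them on a log scale. Cdc6, with WT libraries at 0, had a limma log2 fold change of 5.92 in Dhet against WT. Its Dhet mean was 11.4 times its WT mean. Because the table is normalized, limma and not a count test came first. On recovered reads, edgeR 4.0.16 and DESeq2 1.42.0 were alternatives, beside pseudocounts, filters, scalings and left-out libraries. The limma fit was also run on simulated counts drawn independently for each gene. Beyond depth they held no difference shared by the genes of a library, so no conclusion is drawn from that run. By rule, members printed in full were those called, the most abundant of each class and those with the lowest p against WT (22 genes). Mcm6, Cdc6, Mki67 and Ccnb1 are also printed in full and, like the further members named, were chosen after their values were seen. Classes follow textbook roles.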

Additional observations from a re-analysis of the deposited data

Results flagged for a closer look

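Mcm7 was flagged because the effect of the Csf2 allele differed between the 2 Csf1r genotypes in a test of that difference itself. The interaction was 3.38 on the log2 scale (limma adjusted p = 0.0358), and both Dhet libraries were above the other 9. It was the 1 member of 52 that met this rule, a share near the 1.85% of all genes called for the interaction, and the call was lost in 8 of the 11 fits that left out 1 library. The groups hold 2 or 3 libraries, too few for Dixon's test of an outlying value.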

How the results depend on the processing

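Depth and 2 or 3 libraries a genotype limit these results, and 8 members were at 0 in Csf1r_het replicate 2. Members called changed as follows, with limma unless another tool is named. With DESeq2 on recovered reads 2 were called in Csf1r_het against WT (Cenpf, Stmn1; 5.41% of all genes), 1 in Csf2het (Ccnd3; 8.61%), 7 in Dhet (Birc5, Cenpa, Cenpf, Prc1, Stmn1, Tyms, Uhrf1; 2.54%), 1 for Dhet against Csf1r_het (Mcm7; 0.688%), 6 for Dhet against Csf2het (1.15%), 7 for the interaction (6.87%) and 13 for any difference (7.44%), where edgeR called 1 (1.8%). A pseudocount of 5 called 1 in Csf2het (Ccnd3), and leaving out both 24-month libraries called 1 there (E2f2). For the interaction 0 were called with totals without haemoglobin, 0 without both 24-month libraries and 0 with the replicate block. Leaving out 1 library at a time gave 0 to 1 in Csf1r_het, 0 to 1 in Csf2het, 0 to 3 in Dhet against WT (3 without WT replicate 3: Birc5, Stmn1 and Tyms), 0 to 2 for the interaction and 0 to 2 for any difference. The pseudocount and left-out counts are given without the share of all genes called in each setting. They are not read as a result about the members. Direction was not reversed for any called value. The cause was not tested.

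Replicate numbers gave no sign of pairing: over 15 same-numbered pairs the correlation of deviations ran from -0.214 to 0.0616, and 0 were over 0.1. Over 30 pairs of unlike number it ran from -0.201 to 0.314, and 7 were over 0.1. Deviations from a group mean sum to 0 within the group, so this check cannot exclude a shared batch. The replicate block changed no call other than that of Mcm7. The number of members with every Dhet library above all 9 others was 28 and ran from 27 to 41 over the scalings and left-out libraries, which were chosen after seeing the data, while the share of all genes ran from 2.98% to 15.6%. The 41 is from Dhet replicate 2 alone, where 11.4% of all genes pass.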
